A study of Mus musculus with 16 samples.

Results

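Laminin chains and integrin subunits were taken by gene symbol: Lama, Lamb and Lamc for the laminin chains, Itga for the integrin alpha subunits and Itgb for the integrin beta subunits. Of the 36 such symbols considered here, 35 were among the 23306 genes of the table, 10 of them laminin chains and 25 integrin subunits, and Itgad was not analysed here. The values came from RNA sequencing of organoids grown from the epithelium of the mouse endometrium, the lining of the uterus. Control organoids carried floxed Tgfbr2 (labelled Tgfbr2 FF), the gene of the type II TGF-beta receptor. The conditional knockout (cKO) organoids are labelled Tgfbr2 PRcre+, a Cre recombinase named for the progesterone receptor gene. Both genotypes were cultured for 2 days and then given vehicle over 6 days, or 10 nM estradiol (E2) alone over 2 days and then E2 at the same dose together with the synthetic progestin medroxyprogesterone acetate (MPA, 1 µM) over 4 days. Libraries M1 to M4 were control under vehicle, M5 to M8 cKO under vehicle, M9 to M12 control under E2/MPA and M13 to M16 cKO under E2/MPA. No Cre is named for the control organoids, so a genotype difference cannot be told apart from an effect of Cre itself.

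Laminins are trimers of an alpha, a beta and a gamma chain that assemble into the basement membrane, the sheet of matrix on which an epithelium rests. Integrins are membrane receptors made of an alpha and a beta subunit, which bind laminins and other matrix proteins outside the cell and the cytoskeleton inside it. In epithelia the products of Itga6 and Itgb4 hold the cell to laminin at hemidesmosomes, the product of Itga3 pairs with that of Itgb1 in another laminin receptor, and integrins that contain the product of Itgav include activators of latent TGF-beta. The organoids are grown from the layer that attaches to such a membrane in the uterus.

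The libraries held 14372111 to 20016836 reads, and levels below are normalized read counts, the reads of a gene divided by a size factor of its library. All 9 epithelial markers were read in all 16 libraries. Markers of stromal cells, the connective tissue cells under the epithelium, were read as well, 8 of the 10 in every library, Thy1 in 15 and Lum in 14, and the stromal level of a group was highest in M4, M8, M12 or M16. Summed over 10 markers, the stromal level ran from 802 to 49731 in control vehicle and from 1470 to 41605 in control E2/MPA, and in cKO from 1492 to 19776 under vehicle and from 1953 to 34873 under E2/MPA. Endothelial markers summed to 64.2 to 572, highest in M4, with Kdr at most 471, Vwf at most 147 and Pecam1 at most 12.4. The 4 basal epithelial markers (Krt5, Krt14, Trp63 and Krt13) summed to 528 in M2, 481 in M10 and 269 in M16, and to at most 68.3 in the other libraries. Tgfbr2, the targeted gene, ran from 4852 to 8054 in control vehicle and 4103 to 7794 in control E2/MPA, and in cKO from 3520 to 5439 under vehicle and from 3568 to 5526 under E2/MPA. These are totals over the whole gene and the labels do not name the deleted exons, so they do not check the genotype labels. Nothing in the labels ties the 4 libraries of a group to different animals or cultures, so p-values below cover only the spread among these samples, and that spread may be technical.

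The organoids expressed 6 laminin chains at high levels. Levels of different genes are compared here only as normalized counts per kb of exon (mean ± SD, n = 4, control vehicle). Lama3 and Lamb3, whose products are the alpha and beta chains of the epithelial laminin of hemidesmosomes, were at 931 ± 251 and 1498 ± 135. Lama5 was at 1817 ± 164, Lamb1 at 848 ± 242, Lamc1 at 441 ± 104 and Lamb2 at 391 ± 16.1, chains found in laminins of most epithelial basement membranes. In the order of these levels Lama5 came first and Lamb3 next, and they differed by more than the sum of their SDs. Lama3 and Lamb1 differed by less than the SD of either, and Lamc1 and Lamb2 by less than the SD of Lamc1. The other tested chains, Lama1, Lama4 and Lamc3, had at most 15.3 per kb in that group.

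Among the integrin subunits Itgb1, the beta subunit shared by most alpha subunits, had the highest level per kb in control vehicle, 4476 ± 1763. It was followed by Itga3 at 2722 ± 472 and Itga6 at 1310 ± 242, the alpha subunits of laminin receptors. Itgb4 (930 ± 54.5), Itgb5 (883 ± 52.2) and Itgav (851 ± 77.3) came next and differed from one another by less than the sum of their SDs. Itga2, a collagen receptor subunit, was at 696 ± 207, Itga5, which pairs with the Itgb1 product as a fibronectin receptor, at 413 ± 188, Itgb6 at 181 ± 47.0 and Itgb8 at 90.8 ± 61.8. The other 10 tested integrin subunits had at most 33.9 per kb in that group.

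In control organoids E2/MPA lowered a pair of laminin beta chain genes and raised the third. Lamb1 fell to 0.466 times its vehicle level and Lamb3 fell to 0.795 times, while Lamb2 rose 1.28-fold. Of the integrin subunits, Itgb5, which pairs with the Itgav product as a vitronectin receptor, rose 1.46-fold and Itga10, an alpha subunit of a collagen receptor, rose 2.30-fold from a low level. In all, 5 of 29 tested members passed (17.2%, limma, adjusted p under 0.05), against 8.90% of the 16509 genes tested. The same 5 were the members whose treated and vehicle libraries did not overlap, against 12.1% of all genes. By direction, 3 members rose (10.3%, against 5.39% of all genes) and 2 fell (6.90%, against 3.51%). The median log2 fold change was -0.33 over the 9 laminin chains tested, -0.11 over the 20 integrin subunits and -0.00077 over all genes tested.

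In cKO organoids Itgb5 rose 1.62-fold and Lamb1 fell to 0.533 times its vehicle level, and no other member passed (2 of 29, 6.90%, against 4.19% of all genes tested). Treated and vehicle libraries did not overlap for 6 of 29 members (Itgb5, Itgb8, Itgae, Lama3, Lamb1 and Lamb3), against 13.8% of all genes. The median log2 fold change there was -0.07 over the laminin chains, 0.09 over the integrin subunits and -0.00395 over all genes tested. None of the 29 members passed the test of the difference between the hormone effects in cKO and control, and nor did any of the 16509 genes (0.00%, limma). At an unadjusted p under 0.05 that test held 309 genes (1.87%), and edgeR and DESeq2 called 0 genes as well. The members that passed in control organoids and not in cKO are therefore not shown to respond differently in the 2 genotypes.

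**Figure D1:**
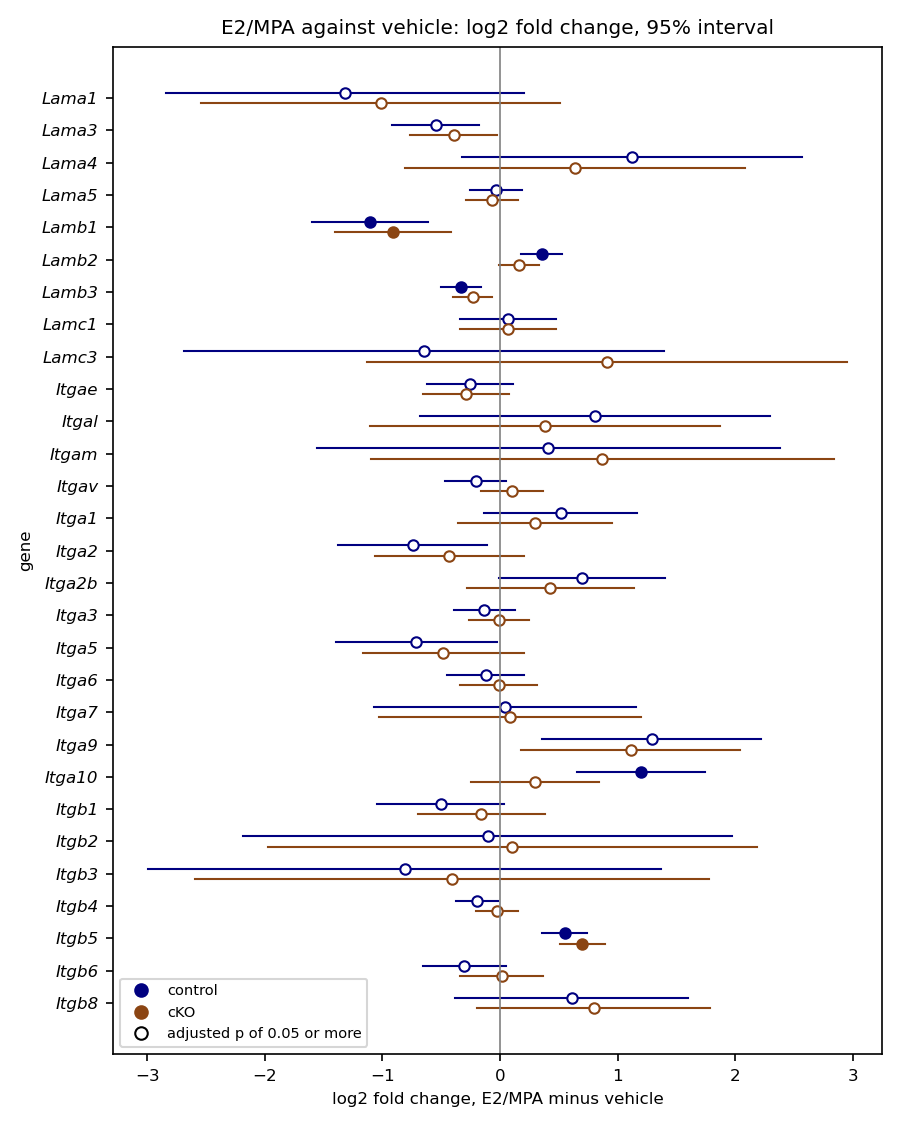
Log2 fold change of E2/MPA against vehicle (x axis) for the 29 tested laminin and integrin genes (y axis), control in dark blue and cKO in brown, with lines for the 95% intervals and filled points for an adjusted p under 0.05. Filled points are Lamb1, Lamb2, Lamb3, Itga10 and Itgb5 in control and Lamb1 and Itgb5 in cKO.

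Lamb1 encodes the beta chain of the laminins that occur in most basement membranes of the body. Its counts in control vehicle (M1 to M4) were 10845, 5960, 6764 and 10050, and under E2/MPA (M9 to M12) they were 4543, 2788, 3330 and 4895. Every treated control library lay below every vehicle one. The log2 fold change was -1.10 (SE 0.23, limma adjusted p = 0.00831), from 8405 ± 2403 to 3889 ± 994. The cKO counts were 10119, 7612, 9380 and 11674 under vehicle (M5 to M8) against 5294, 4015, 4621 and 6955 under E2/MPA (M13 to M16). Again the treated libraries all lay lower, with a log2 fold change of -0.91 (SE 0.23, adjusted p = 0.0399). The cKO effect minus the control effect was 0.20, with a 95% interval from -0.50 to 0.89. Leaving out any one of M5, M7, M8, M13, M14 and M15 ended the cKO call, with limma adjusted p-values of at most 0.127. In control it was lost only when the control libraries were fitted alone (adjusted p = 0.0563, over all alternatives 3.28e-05 to 0.0563).

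Lamb3 encodes the beta chain of the hemidesmosomal laminin. The control libraries held 10124, 8813, 9724 and 10957 under vehicle against 7737, 7483, 7771 and 8433 under E2/MPA, with no overlap. This fall was -0.33 on the log2 scale (SE 0.08, limma adjusted p = 0.0161). In cKO the counts were 9630, 10516, 8857 and 10435 under vehicle against 8679, 8316, 7918 and 8553 under E2/MPA. Those groups did not overlap either, but the change did not pass (-0.23, SE 0.08, adjusted p = 0.111). In cKO Lamb3 passed with DESeq2 (0.0250), array weights (0.0457), the stromal level as a covariate (0.0155) and a block joining libraries 8 numbers apart (0.00770), over all alternatives 0.00770 to 0.252. The control call was lost without M1 (adjusted p = 0.0506) or M10 (adjusted p = 0.0600) and with the control libraries fitted alone (0.0911, over all alternatives 3.19e-04 to 0.0911).

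Lamb2 encodes a beta chain found at synapses, kidney and muscle basement membranes as well as in epithelia. Control counts were 2350, 2426, 2483 and 2257 under vehicle against 3010, 3342, 3096 and 2731 under E2/MPA, so every treated library was higher. Its log2 fold change was 0.35 (SE 0.08, limma adjusted p = 0.0137). In cKO the values were 2685, 2815, 2611 and 2219 under vehicle against 2912, 2945, 3044 and 2624 under E2/MPA, where M16 lay within the vehicle range. That change did not pass (0.16, SE 0.08, adjusted p = 0.304), and the difference between the genotypes was -0.19 (95% interval -0.43 to 0.05). The cKO change of Lamb2 passed with the stromal covariate (0.0272) and the block (0.0495), over all alternatives 0.0272 to 0.632. Without M10 the control call was lost (adjusted p = 0.0546), as it was with the control libraries fitted alone (0.0509, over all alternatives 2.22e-04 to 0.0546).

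Per kb of exon, the share of Lamb1 among the 3 beta chains went from 30.5% ± 5.14 to 18.7% ± 3.85 in control and from 33.7% ± 4.52 to 23.1% ± 4.25 in cKO organoids. The share of Lamb2 went from 14.5% ± 2.37 to 24.2% ± 3.26 in control and from 14.8% ± 2.11 to 21.0% ± 2.41 in cKO. Lamb3 kept the largest share in each of the 16 libraries, with group means of 51.6% to 57.1%. The ratio of Lamb2 to Lamb1 counts was 0.304 ± 0.0975 in control vehicle and 0.837 ± 0.287 in control E2/MPA, and 0.276 ± 0.0737 and 0.580 ± 0.155 in cKO. Under E2/MPA it was lowest in M12 (0.558) of the control libraries and in M16 (0.377) of the cKO libraries, which had the highest stromal level of their groups. In M16 it overlapped the vehicle range of control organoids.

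**Figure D2:**
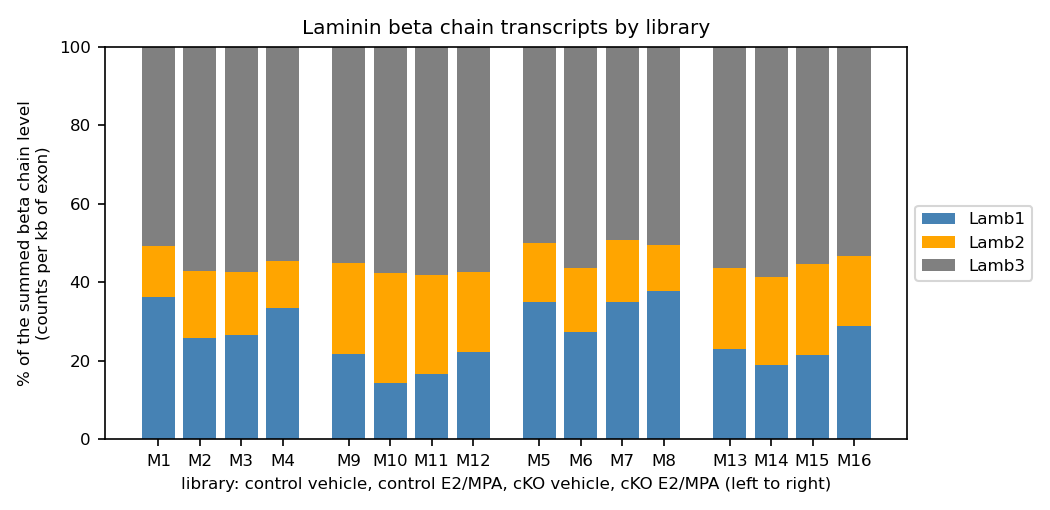
Share of Lamb1, Lamb2 and Lamb3 in the summed beta chain level (y axis, percent, counts per kb of exon) in each of the 16 libraries (x axis), with groups from left to right control vehicle, control E2/MPA, cKO vehicle and cKO E2/MPA. The mean Lamb1 share is smaller and the mean Lamb2 share larger under E2/MPA in both genotypes. In cKO the Lamb1 shares overlap, with M16 under E2/MPA (28.9%) above M6 under vehicle (27.2%).

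The sequences before the transcription start of the 3 beta chain genes and of Itgb5 are shown because these genes passed for the hormone effect in control organoids. Itga10 also passed there and is not shown, and in cKO only Lamb1 and Itgb5 passed. The sequences come from the RefSeq promoter table of build GRCm38.p6, and only the part of the 250 bases before the start that overlaps no annotated exon is printed, on the plus strand. For Lamb3 the table has a pair of starts, and the upstream window is shown. Capitals mark the E-box CACCTG, a site class bound by zinc finger and basic helix-loop-helix factors of epithelial cells.
Itgb5, chr16:33829415-33829664: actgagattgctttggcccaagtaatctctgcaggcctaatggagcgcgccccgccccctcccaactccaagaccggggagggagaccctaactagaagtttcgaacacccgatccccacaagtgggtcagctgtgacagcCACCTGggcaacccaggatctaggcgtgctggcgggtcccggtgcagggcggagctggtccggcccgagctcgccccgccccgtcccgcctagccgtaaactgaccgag
Lamb1, chr12:31265043-31265233: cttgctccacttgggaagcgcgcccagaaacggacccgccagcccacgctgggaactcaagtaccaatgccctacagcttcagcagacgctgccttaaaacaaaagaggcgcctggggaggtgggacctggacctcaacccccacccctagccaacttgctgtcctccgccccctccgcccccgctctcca
Lamb2, chr9:108479612-108479735: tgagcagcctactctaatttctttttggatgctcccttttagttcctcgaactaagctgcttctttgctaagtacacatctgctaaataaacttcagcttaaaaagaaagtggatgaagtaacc
Lamb3, chr1:193301744-193301992: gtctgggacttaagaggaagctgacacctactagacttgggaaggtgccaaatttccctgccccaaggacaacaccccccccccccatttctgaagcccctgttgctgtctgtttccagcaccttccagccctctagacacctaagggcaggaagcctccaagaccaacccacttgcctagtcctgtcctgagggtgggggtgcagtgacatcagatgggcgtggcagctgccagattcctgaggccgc

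Promoter entries were matched for 23 of the 34 members looked up, and 5 motifs were searched on both strands of the 250 bases before each start. The palindromic site shared by the progesterone and glucocorticoid receptors, AGAACA and TGTTCT with 3 free bases between them, was in 0 of the 26 member promoters and in 0.00913% of all 32851 promoters. The estrogen receptor site, GGTCA and TGACC with 3 free bases between them, was in 0 of them and in 0.0639% of all promoters. The receptor half-site TGTTCT, which lies inside the palindromic site, was in those of 5 genes, Itga2, Itgax, Itgb1, Itgb7 and Lama2, and in 16.1% of all promoters. The AP-1 site TGANTCA was found for Itgax and in 6.75% of all promoters. The E-box CACCTG was found for 8 genes, Itga11, Itga3, Itga9, Itgb5, Itgb6, Itgb8, Lama5 and Lamb3, and in 17.2% of all promoters. In Itgb5 it lay 109 to 104 bases before the start. In Lamb3 it lay next to the downstream start, outside the stretch printed. A match describes letters in the window only, and no match says nothing of the factor.

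Itgb5 was the member whose call held in both genotypes under all 31 alternatives. In control organoids the counts were 2872, 3185, 3189 and 3304 under vehicle against 5046, 4119, 4350 and 4868 under E2/MPA. In cKO organoids they were 3448, 3381, 2923 and 3068 under vehicle against 5730, 4524, 5038 and 5576 under E2/MPA. All 8 treated libraries lay above all 8 vehicle libraries. The log2 fold change was 0.55 in control (SE 0.09, limma adjusted p = 0.00186) and 0.70 in cKO (SE 0.09, adjusted p = 4.87e-04). Between genotypes these effects differed by 0.15, with a 95% interval from -0.12 to 0.42.

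The partner of Itgb5, Itgav, and the other beta subunits that pair with it did not pass in either genotype. Itgav counts were 8959, 8753, 8513 and 10363 in control vehicle, 8495, 6975, 6622 and 9910 in control E2/MPA, 8047, 8060, 8646 and 9321 in cKO vehicle and 8272, 9000, 8633 and 10802 in cKO E2/MPA. The groups overlapped, and M4, M12, M8 and M16 were the highest of each. Itgb6, whose product with that of Itgav activates latent TGF-beta, was at 1174, 946, 1286 and 1741 in control vehicle and 945, 858, 1061 and 1245 in control E2/MPA. In cKO Itgb6 was at 956, 851, 1007 and 1206 under vehicle against 927, 945, 1008 and 1162 under E2/MPA, so both pairs of groups overlapped. The ratio of Itgb5 to Itgb6 counts was 2.55 ± 0.608 in control vehicle against 4.54 ± 0.657 in control E2/MPA, and 3.26 ± 0.651 against 5.19 ± 0.668 in cKO.

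Itgb8, another TGF-beta activating partner of Itgav, varied more between libraries. It was at 626, 1725, 1416 and 251 in control vehicle and 1192, 1288, 1554 and 874 in control E2/MPA, with the lowest value of each group in the stroma-highest library. In cKO it was at 876, 961, 812 and 398 under vehicle against 1393, 1032, 1293 and 1329 under E2/MPA. The cKO groups did not overlap, but the log2 fold change of 0.79 (SE 0.46, limma adjusted p = 0.392) did not pass. Itgb3, the beta subunit of the vitronectin receptor of osteoclasts, was at 146, 32.7, 23.7 and 561 in control vehicle and 29.2, 25.2, 21.5 and 280 in cKO vehicle. Under E2/MPA Itgb3 was at 77.8, 24.0, 32.8 and 108 in control and 19.0, 22.0, 22.8 and 145 in cKO. In each group the stroma-highest library held its top value.

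Itga10 is the other integrin subunit that passed in control organoids, at low counts. It was at 29.3, 24.8, 27.0 and 34.4 under vehicle against 89.3, 52.0, 47.5 and 92.4 under E2/MPA, without overlap. The log2 fold change was 1.20 (SE 0.25, limma adjusted p = 0.00891). Its cKO counts were 32.5, 54.6, 32.8 and 37.6 under vehicle against 64.2, 40.5, 38.8 and 50.5 under E2/MPA, which overlapped (0.30, SE 0.25, adjusted p = 0.589). The difference between the genotypes was -0.90 (unadjusted p = 0.0242, limma adjusted p = 1.00). In GENCODE M21, 33.5% of its exon bases are shared with the gene model Gm42957 on the same strand, so its count is uncertain. The call was lost with the control libraries fitted alone (0.0557, over all alternatives 4.26e-04 to 0.0557).

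**Figure D3:**
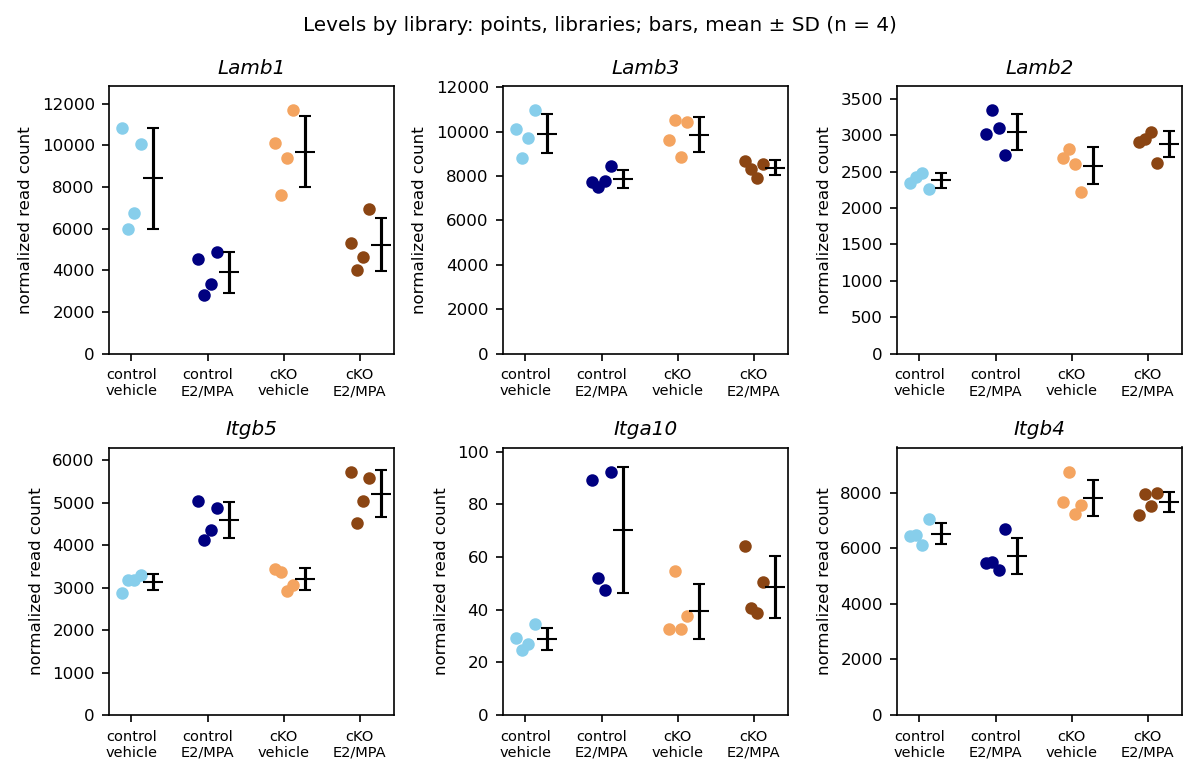
Normalized read counts (y axis, from 0) of Lamb1, Lamb3, Lamb2, Itgb5, Itga10 and Itgb4 in the 4 groups (x axis), with 1 point per library and black bars for mean ± SD (n = 4). The E2/MPA points of Itgb5 lie above all its vehicle points in both genotypes, and those of Lamb1 lie below the vehicle points of their genotype.

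Lama3, which encodes the alpha chain of the hemidesmosomal laminin, had lower means under E2/MPA without passing. It was at 12111, 6588, 9081 and 12219 in control vehicle and 7580, 5474, 6605 and 7080 in control E2/MPA, overlapping through M2. In cKO it was at 9312, 8396, 10080 and 12144 under vehicle against 7041, 7282, 7630 and 8192 under E2/MPA, without overlap. The log2 fold change was -0.55 in control (SE 0.17, limma adjusted p = 0.0649) and -0.39 in cKO (SE 0.17, adjusted p = 0.239). The control change of Lama3 passed without M2 (-0.73, adjusted p = 0.00621), with edgeR (adjusted p = 0.0482) with DESeq2 (adjusted p = 0.0134), and with array weights, the stromal covariate and the block of libraries 8 numbers apart, over all alternatives 0.00257 to 0.199. In cKO Lama3 passed with the covariate (0.0271) and the block (0.0252), over all alternatives 0.0252 to 0.484.

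Lama5 and Lamc1, whose products combine with those of Lamb1 or Lamb2, passed in no comparison. Lama5 was at 22944, 21458, 19492 and 18872 in control vehicle and 21569, 20438, 19864 and 18665 in control E2/MPA (log2 fold change -0.04, SE 0.07). In cKO Lama5 was at 22869, 24732, 21414 and 18882 under vehicle against 20070, 23214, 21840 and 18420 under E2/MPA. The lowest library of each group was the stroma-highest one. Lamc1 was at 3832, 2945, 3025 and 4785 in control vehicle and 4350, 2775, 3006 and 5400 in control E2/MPA. In cKO Lamc1 was at 3824, 3689, 3517 and 3828 under vehicle against 3582, 3938, 3537 and 4577 under E2/MPA, again with the highest count of each group in the stroma-highest library. The 3 other tested chains were low: Lama4, a chain of vessel and muscle laminins, ran from 61.0 to 775, Lamc3 from 6.78 to 180 and Lama1, the alpha chain of embryonic laminin, from 1.00 to 47.2.

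The genotype comparison set organoids labelled cKO against control organoids under the same treatment. Itgb4, the hemidesmosomal beta subunit, had the largest statistic of the members in both treatments and was higher in cKO. Under vehicle its counts were 6458, 6471, 6123 and 7045 in control and 7670, 8750, 7237 and 7571 in cKO. Under E2/MPA they were 5478, 5514, 5220 and 6689 in control and 7200, 7939, 7511 and 7973 in cKO. Neither treatment showed overlap between the genotypes. The 2 comparisons share no library, but they come from 1 fit with 1 estimate of the spread. Libraries 8 numbers apart also had a consensus correlation of 0.496, so the 2 comparisons are not shown to be independent of one another. The log2 difference was 0.26 under vehicle (SE 0.08, unadjusted p = 0.00807, limma adjusted p = 0.801) and 0.42 under E2/MPA (SE 0.08, unadjusted p = 1.51e-04, adjusted p = 0.154). Neither passed. The hormone effect on Itgb4 in control was -0.19 (limma adjusted p = 0.174), and leaving out M12 brought it past the threshold (-0.27, adjusted p = 0.0308).

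In all, 0 of 29 members passed under vehicle, where 0 of 16509 genes did (0.00%), and 0 of 29 under E2/MPA, where 1 gene did (0.00606%). At an unadjusted p under 0.05 these comparisons held 984 genes (5.96%) and 1794 genes (10.9%). With edgeR the genes called were 0 under vehicle and 1 under E2/MPA, and with DESeq2 they were 14 and 185. Under E2/MPA Itgb4 passed with DESeq2 (adjusted p = 0.00128), with array weights (0.0131), with the stromal level as a covariate (0.0188) and without M12 (0.0278), over all alternatives 0.00128 to 0.484. Members whose libraries did not overlap between genotypes were 1 of 29 under vehicle, Itgb4, against 3.01% of all genes. Under E2/MPA they were 2 of 29, Itgb4 and Itga3, against 6.17%.

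Itga3, the alpha subunit of an epithelial laminin receptor, was at 14898, 12838, 12622 and 15966 in control E2/MPA and 17285, 18661, 16430 and 18702 in cKO E2/MPA. Every cKO library lay higher, but the log2 difference of 0.34 (SE 0.12, limma adjusted p = 0.318) did not pass. It passed with array weights (0.0461) and with the stromal covariate (0.0493), over all alternatives 0.0461 to 0.668. Under vehicle Itga3 was at 18284, 12942, 13539 and 17405 in control and 18711, 19138, 15777 and 17913 in cKO, which overlapped (0.21, SE 0.12, adjusted p = 0.840). Itga6, the partner of Itgb4, was at 12530, 13243, 12949 and 8580 in control vehicle and 12904, 11963, 13037 and 11003 in cKO vehicle. Under E2/MPA Itga6 was at 11486, 11999, 11898 and 8017 in control and 12919, 12065, 13427 and 10261 in cKO, and the lowest library of each group was the stroma-highest one.

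**Figure D4:**
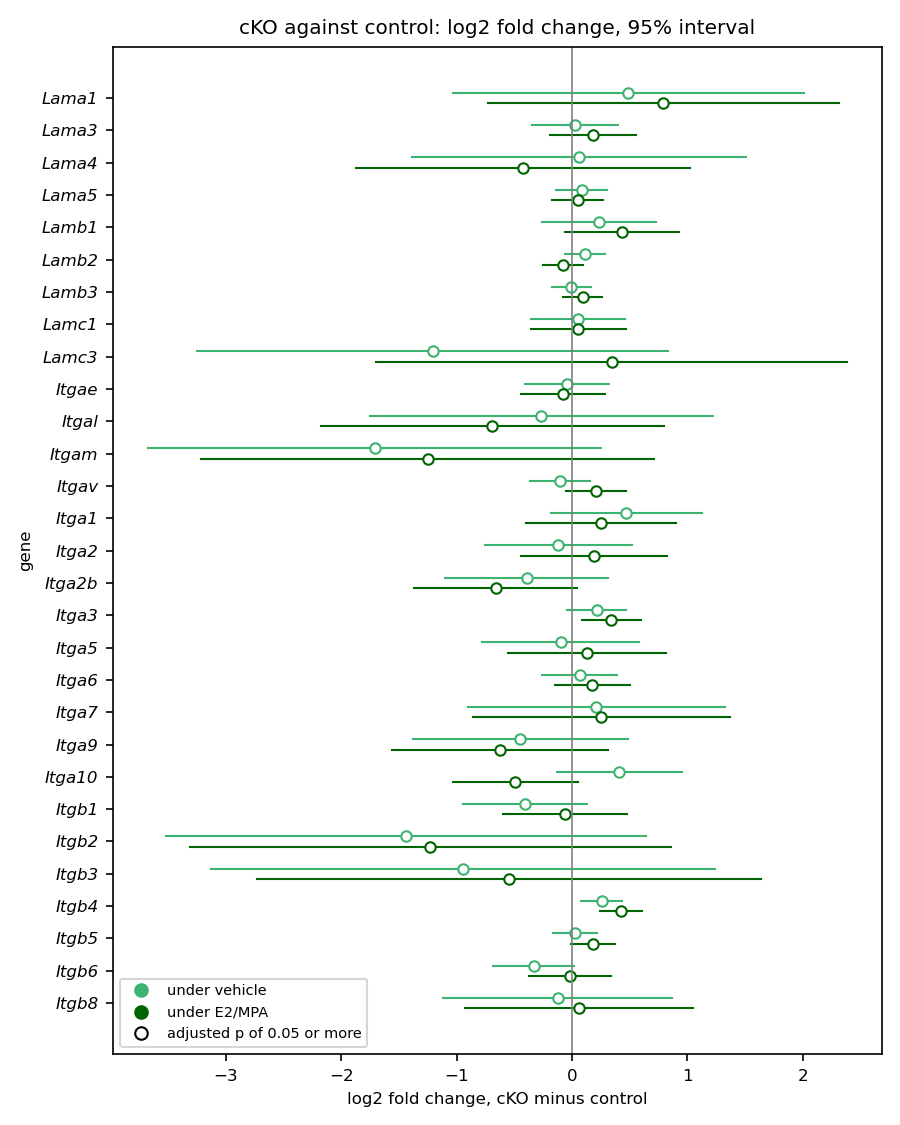
Log2 fold change of cKO against control (x axis) for the 29 tested laminin and integrin genes (y axis), light green under vehicle and dark green under E2/MPA, with lines for the 95% intervals. All points are open because no adjusted p was under 0.05, and the intervals of Itgb4 lie above 0 in both treatments.

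For many members the stroma-highest library stood at one end of its group. In all 4 groups the stroma-highest library held the highest count for 10 of 29 members (34.5%, against 12.1% of all genes tested), and these were Itga2, Itga5, Itga7, Itgav, Itgb1, Itgb3, Itgb6, Lama4, Lamc1 and Lamc3. It held the lowest count in all 4 groups for Itga2b, Itga6, Lama5 and Lamb2 (13.8%, against 9.42%). Itgb1 was at 16896, 13044, 14335 and 28786 in control vehicle and 12044, 10143, 10504 and 17489 in control E2/MPA. In cKO Itgb1 was at 11597, 10824, 11775 and 19961 under vehicle against 11151, 10775, 10837 and 14564 under E2/MPA. M4, M12, M8 and M16 thus lay above the rest of their groups. Stromal markers were not alone in this, since the same 4 libraries had the highest summed level of their groups for 3 other lists of cell type markers (smooth muscle, endothelial and mesothelial) and for the epithelial markers. The mesothelial lead was small in cKO, 6434 in M8 against at most 6158 and 8560 in M16 against at most 8415. Sums of leukocyte, megakaryocyte and basal epithelial markers were highest in other libraries in some groups. The epithelial sum was 174682 to 203269 in them and at most 163097 in the others, and the smooth muscle sum 789 to 2298 against at most 310. Whether cells of any of these types contributed the reads of the members was not tested, and in bulk libraries fewer cells of a type and less RNA per cell cannot be told apart.

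**Figure D5:**
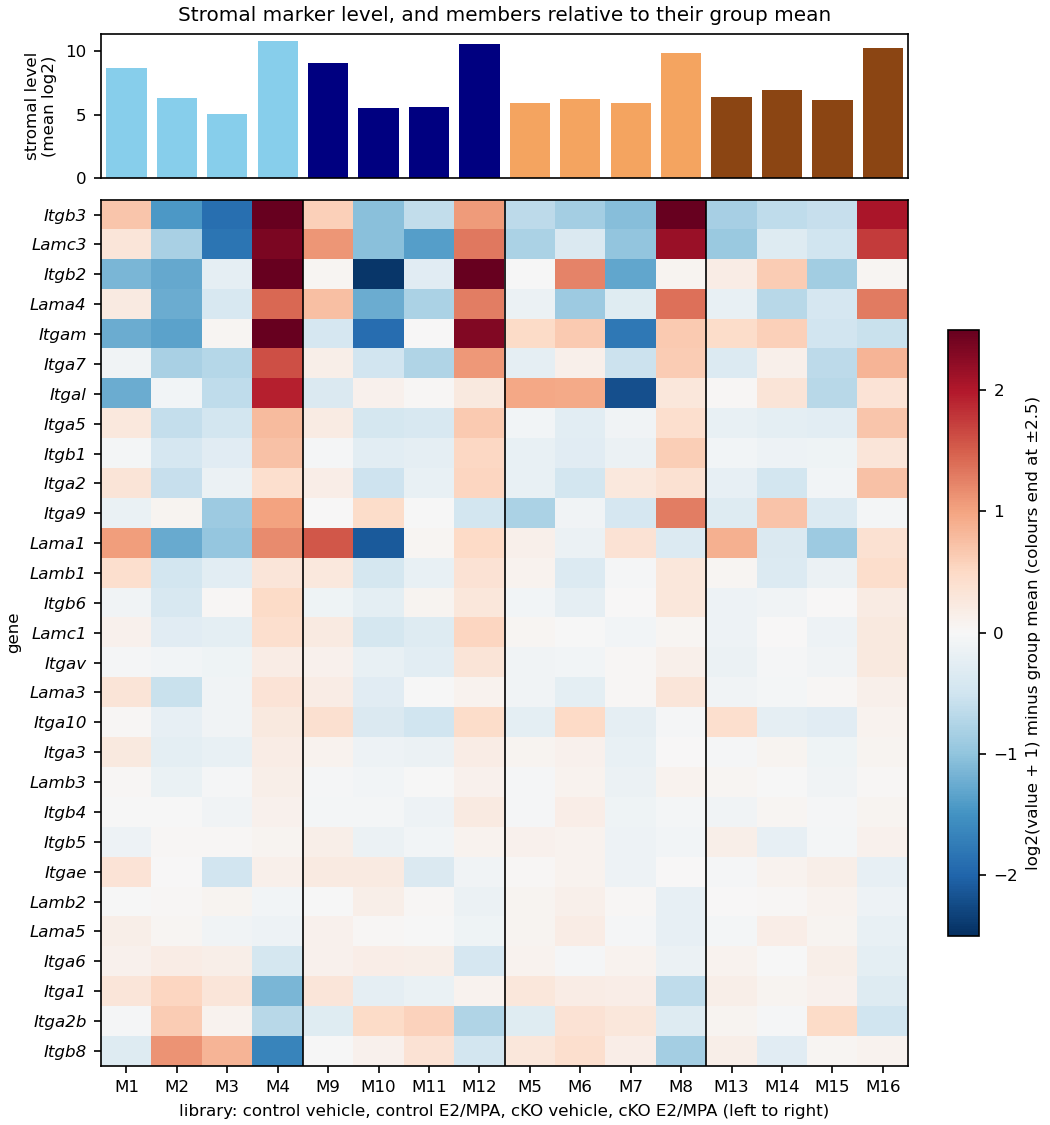
Stromal marker level (bars, mean log2 of 10 markers) above a map of the 29 tested members (rows) in the 16 libraries (columns), coloured by log2(value + 1) minus the mean of the group, with colours ending at 2.5 to either side and 5 values beyond. Rows are sorted by their mean in M4, M8, M12 and M16, from Itgb3 at the top to Itgb8 at the bottom.

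Leaving out M4, M8, M12 and M16 kept the hormone calls of Itga10, Itgb5, Lamb1, Lamb2 and Lamb3 in control and added Itga9 and Itgb1. That is 7 of 29 members, and the calls over all 16509 genes rose as well, from 1469 to 2210. For Itgb1 in control the log2 fold change was -0.50 over all libraries (limma adjusted p = 0.241) and -0.43 without those 4 (adjusted p = 0.0158, over all alternatives 0.00502 to 0.553). In cKO the fit without those 4 libraries kept Itgb5 and Lamb1 and added Itga9 (3 of 29 members). Calls over all genes rose there from 692 to 959. Itga9, whose product with that of Itgb1 binds tenascin and osteopontin, was at 112, 131, 66.3 and 254 in control vehicle and 311, 422, 305 and 225 in control E2/MPA. In cKO Itga9 was at 52.7, 86.5, 68.9 and 226 under vehicle against 159, 328, 157 and 194 under E2/MPA. The vehicle libraries M4 and M8 stood above the rest of their groups, and among the other libraries no treated one overlapped the vehicle ones. The share of all genes without such overlap in those smaller groups is not given here. Over all libraries the log2 fold change was 1.29 in control (SE 0.44, limma adjusted p = 0.0808) and 1.11 in cKO (SE 0.44, adjusted p = 0.181). Without those 4 libraries it was 1.78 (adjusted p = 0.00389) and 1.56 (adjusted p = 0.0142), and in control it also passed without M4 alone (adjusted p = 0.0339) or M8 alone (adjusted p = 0.0344). Itga9 passed in cKO without M8 alone (adjusted p = 0.0466).

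The integrin subunits of leukocytes were low, and those of a myeloid integrin, Itgam and Itgb2, had their highest counts in M4 and M12. Itgam ran from 2.26 to 48.4 in all libraries other than M4 (212) and M12 (244), and Itgb2, its partner, from 6.78 to 49.2 other than M4 (327) and M12 (300). Of 8 leukocyte markers 7 were in the table, and each was read in all 16 libraries. Their mean log2 level was highest in M4 (9.56) and M12 (10.08), against 7.32 to 8.51 in the other libraries. Their summed count ran from 18174 to 35356 in control vehicle, where M3 was highest, and from 15418 to 30450 in control E2/MPA, where M12 was. In cKO it ran from 11536 to 31891 under vehicle and from 16778 to 25487 under E2/MPA, and the part of leukocytes in the integrin counts was not tested. Of the exon bases of Itgam, 68.7% are shared with the gene model Gm49368 on the same strand, so its count is uncertain. Itgal, the lymphocyte alpha subunit, ran from 1.13 to 44.0, with the highest count in M4. Itgae, which with the product of Itgb7 binds E-cadherin, ran from 98.5 to 194, highest in M1, and its cKO groups did not overlap (148 ± 9.83 under vehicle, 121 ± 12.9 under E2/MPA, adjusted p = 0.392).

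The remaining tested alpha subunits passed in no comparison of the limma fit of all libraries. Itga1, a collagen receptor subunit, ran from 77.6 to 326, Itga2 from 1989 to 6371, Itga2b, the platelet subunit, from 44.3 to 178, Itga5 from 847 to 3249 and Itga7, the laminin receptor subunit of muscle, from 49.7 to 272. For the hormone effect in control, Itga2, Itga2b and Itga5 passed with the stromal covariate (adjusted p = 0.00672, 0.0201 and 1.47e-04) and with the block of libraries 8 numbers apart (0.00684, 0.0253 and 0.0117), and under no other alternative. Their log2 fold changes over all libraries were -0.74, 0.70 and -0.71 (adjusted p = 0.139, 0.217 and 0.189). Itga5 also passed in cKO with the covariate (0.00106). The 6 members left out of the tests had a count of at least 10 in fewer than 4 libraries. Itga11 reached at most 11.7 and Itgb7 at most 11.0. Itga8, whose product binds nephronectin, was above 10 in M9 (35.5), M12 (48.4) and M16 (39.8) only, and was listed at 0 in 7 libraries. Lama2, the alpha chain of muscle laminin, was above 10 in those 3 as well (37.8, 44.0 and 21.5). Itga4 was above 10 in M4 (25.6), M8 (19.2) and M12 (37.4), and Itgax, a myeloid subunit, in M12 (18.7) and M16 (16.1). These are libraries with the highest or next highest stromal level of their groups.

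Of 20 tested basement membrane partners of the laminins, 0 rose and 1 fell in each genotype under E2/MPA (5.00%, against 8.90% of all genes in control and 4.19% in cKO), with medians of -0.18 in control and -0.05 in cKO. The member that fell was Npnt, which encodes nephronectin, the ligand of the Itga8 product, and it was named after its values were seen. It went from 523 ± 127 to 194 ± 18.0 in control (-1.39, limma adjusted p = 3.66e-04) and from 463 ± 82.1 to 204 ± 39.1 in cKO (-1.18, adjusted p = 0.00220). The partners with the highest counts, Fbln1 and Agrn (fibulin and agrin), did not pass (log2 fold change 0.49, adjusted p = 0.362 and -0.28, adjusted p = 0.250 in control). Of 13 tested genes of hemidesmosomes and other laminin receptors, 0 rose and 1 fell in each genotype, with medians of -0.12 and -0.08. This share was 7.69%, against 8.90% of all genes in control and 4.19% in cKO. The gene that fell was Plec, which encodes plectin, the linker between the Itgb4 product and keratin filaments, also named after its values were seen. Plec went from 18555 ± 2215 to 13216 ± 750 in control (-0.48, adjusted p = 0.00240) and from 19485 ± 352 to 15299 ± 476 in cKO (-0.35, adjusted p = 0.0272). Leaving out any one of M5 to M8 or M13 to M15 ended the cKO call of Plec, with adjusted p-values of at most 0.0913, as did quantile normalization (0.0557). The control call of Plec was lost with the control libraries fitted alone (0.0578). Rpsa and Bcam, which had the highest counts of that list, had log2 fold changes of -0.03 (adjusted p = 0.912) and -0.12 (adjusted p = 0.796) in control.

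Of 27 tested integrin adaptors and focal adhesion genes, 1 rose and 4 fell in control (18.5%, against 8.90% of all genes), and 1 rose and 1 fell in cKO (7.41%, against 4.19%), with medians of -0.06 and -0.02. Itgb1bp1, whose product binds the tail of the Itgb1 product and limits integrin activation, rose 1.73-fold in control, from 183 ± 18.8 to 316 ± 14.2 (0.79, limma adjusted p = 1.98e-04). In cKO it went from 195 ± 9.31 to 292 ± 33.4 (0.58, adjusted p = 0.00376), and both calls held under all 31 alternatives. Fermt1, the kindlin gene of epithelia, whose product activates integrins, fell by 0.80 in control (adjusted p = 0.0151) and fell by 0.73 in cKO (adjusted p = 0.0404). Git1, a focal adhesion scaffold, fell by 0.58 (adjusted p = 0.0153), Lims1, a partner of integrin-linked kinase, fell by 0.47 (adjusted p = 0.0394) and Arhgef7, the partner of the Git1 product, fell by 0.36 (adjusted p = 0.0398), all in control. Arhgef7 was named after its values were seen. In cKO these genes did not pass in the limma fit of all libraries, but they did under some alternatives. Git1 (-0.49) passed there with DESeq2 (adjusted p = 0.0107), the cKO libraries fitted alone (0.0119) and the stromal covariate (0.00100), among others. Lims1 passed there with DESeq2 (0.0290) and array weights (0.0129), among others. Arhgef7 passed there with array weights (0.0327) and the block of libraries 8 numbers apart (0.0131). Leaving out 1 library ended the control calls of Fermt1 (M1 or M10, adjusted p up to 0.0534), Git1 (M1, M10 or M11, up to 0.0598), Lims1 (M1, M2, M3, M5, M6, M9, M10, M11 or M15, up to 0.138) and Arhgef7 (M1, M3, M4, M5, M6, M9, M10, M11 or M13, up to 0.137). It ended that of Fermt1 in cKO without M3, M5, M7, M8, M9, M11, M13, M14 or M15 (up to 0.123). With the control libraries fitted alone, these 4 control calls were lost as well (adjusted p up to 0.109), and that of Arhgef7 also without a filter (0.0519).

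Of 16 tested integrin ligands other than laminins, 1 rose and 2 fell in control (18.8%, against 8.90% of all genes), and 0 rose and 2 fell in cKO (12.5%, against 4.19%), with medians of -0.20 and 0.01. Those that fell in both were Fn1, the fibronectin gene, and Tgfbi, and the one that rose was Postn, the periostin gene and a stromal product. Postn went from 14.7 ± 25.5 to 627 ± 617 in control (6.17, limma adjusted p = 0.0170), with wide spread in both groups. In cKO Postn passed with array weights (4.13, adjusted p = 0.0286), the stromal covariate (1.41e-04) and the block of libraries 8 numbers apart (0.00604). It also passed there without M4, M8, M12 and M16 (0.0299). The Fn1 calls were lost without any of 10 libraries in control (adjusted p up to 0.148) and any of 8 in cKO (up to 0.126). In control the Fn1 call was also lost with edgeR (0.0891), DESeq2 (0.0793), robust variance (0.0508), no filter (0.0510) and the control libraries fitted alone (0.130), and in cKO with edgeR (0.0685) and quantile normalization (0.0549). The cKO call of Tgfbi was lost without any of 11 libraries (up to 0.130), with robust variance (0.0511) and with no filter (0.0569). Of 4 tested relatives that share laminin domains, Ntn4, a netrin that binds laminin gamma chains, fell in both genotypes and the other 3 did not pass. The share called was 25.0% in each genotype, against 8.90% of all genes in control and 4.19% in cKO. Ntn4 went from 759 ± 152 to 401 ± 52.1 in control (-0.91, limma adjusted p = 8.51e-04) and from 993 ± 17.2 to 467 ± 62.4 in cKO (-1.10, adjusted p = 3.55e-04). The other member named by rule, Ntn1, did not pass (0.92, adjusted p = 0.582 in control). In the genotype comparisons and in the test of the difference between hormone effects, 0 genes of these lists passed in the limma fit of all libraries. For genotype under E2/MPA, Git1 (0.40, adjusted p = 0.0376) and Postn (-2.85, adjusted p = 0.0190) passed in limma with the stromal covariate, as did 363 of all 16509 genes. The hormone comparisons in control and cKO and the genotype comparisons use the same 16 libraries, so their values are not independent of one another.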

How the data were processed

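RNA sequencing was done on 16 libraries of mouse endometrial epithelial organoids, 4 in each of 4 groups. Alignment with HISAT2, counting with featureCounts and use of DESeq2 on build GRCm39 are named in the submitters' processing notes. The annotation, strand setting and versions are not given in the sources used here. Per gene and library the authors deposited a signal, the read count divided by a size factor. Multiplied by that factor, 100% of values gave whole reads within 0.01 read in every library. All pairs of libraries within a group differed by more than counting noise (chi-square over degrees of freedom at least 7.70). Symbols came from GENCODE M21 names for 22484 genes, and the 822 others held 1.83% of the reads. Exon lengths came from GENCODE M21, an annotation of another build.

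Values were analysed as log2(value + 1), which understates the change of low genes. Tests covered the 16509 genes that reached 10 in 4 or more libraries, and 6797 were left out, 6 of them laminin or integrin genes. One limma fit (version 3.58.1, R 4.3.3) of all libraries, with group means as coefficients and a mean-variance trend, gave 5 two-sided comparisons with Benjamini-Hochberg adjustment over all genes and a threshold of 0.05. The fit was tested on simulated data. Alternatives covered the pseudocount, filter, scaling, libraries in the fit, library weights, robust variance, a stromal covariate, a random block, count tests of the recovered reads with DESeq2 (version 1.42.0) and edgeR (version 4.0.16), and leaving out each library. Intervals are at 95%.

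The members, lists and alternatives were chosen with earlier results of these data known. Values per library are given for members that passed in any comparison, for the member with the highest mean of each role, for the chains of the epithelial laminins and their receptors, and for Itgav and its partners. Itga9 was added after its values were seen. One gene that the rule takes in is not reported here and is in no count of members. In each other list the named genes are up to 4 that passed, or the 2 of highest mean if fewer than 2 passed, and Npnt, Plec and Arhgef7 were added after their values were seen. Promoters on the chromosome of Lama3 were not searched.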

Additional observations from a re-analysis of the deposited data

Results flagged for a closer look

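In 11 of 120 combinations of member and group (9.17%), 1 library stood apart from the other 3 of its group by more than 0.829 of the range, the 95% limit of Dixon's test for 4 samples on log2 values. For separate samples of normal values the test flags about 1 in 20, but these combinations share libraries. The share flagged over all genes is not given here. Of all genes tested, 12.1% had their highest count in the stroma-highest library in all 4 groups, and 9.42% their lowest. In 10 of the 11 the library was M4, M8, M12 or M16, the one with the highest stromal level of its group, and the part of stromal or other cells in these values was not tested. Itga1 was low in M4 (77.6, others 214 to 252), M8 (156, others 269 to 292) and M16 (237, others 311 to 326). Itga6 was low in M4 (8580, others 12530 to 13243) and M12 (8017, others 11486 to 11999). Itgb1 was high in M8 (19961, others 10824 to 11775) and M16 (14564, others 10775 to 11151). Itgb3 was high in M8 (280, others 21.5 to 29.2) and M16 (145, others 19.0 to 22.8). Itga5 was high in M16 (2039, others 1050 to 1110). Itgam was low in M7 (2.26, others 14.6 to 16.8), at a level near that of a few reads.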

How the results depend on the processing

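For the hormone effect in control, 5 of 29 tested members were called, and 1469 of all 16509 genes. Only Itgb5 was called with only the groups compared in the fit (484 of all genes). With the stromal level as a covariate 13 members were called (3559 of all genes). A random block joining libraries 8 numbers apart (consensus correlation 0.496) gave 14 members (4479 of all genes). Leaving out 1 library gave 3 to 6 members, the lowest without M10 (759 of all genes). Calls over all genes thus moved in the same direction as those of the members. In cKO the 2 member calls (692 of all genes) became 4 with array weights (1678 of all genes) and 6 with the stromal covariate (2655). They became 6 with the random block (3098), 3 with DESeq2 (1255) and 1 to 2 without 1 library. For genotype under E2/MPA the 0 member calls (1 of all genes) became 2 with array weights (597 of all genes) and 2 with the stromal covariate (363). They became 1 with DESeq2 (185) and 0 to 1 without 1 library. For genotype under vehicle and for the difference of hormone effects the count of members was 0 under every alternative run. No member or list gene reversed its direction where it was called. Members added in control by both the covariate and the block were Itga2, Itga2b, Itga5, Itga9, Itgb1, Lama3 and Lama4. The covariate also added Itgav, and the block Itgb4 and Itgb6. The labels give each library its own number and do not say that libraries 8 numbers apart are paired. In every group the stroma-highest library was the last numbered one (M4, M8, M12 and M16). A block of libraries at the same position in their groups, which would also join the genotypes, was not run.

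Over all genes, the 1469 calls in control became 484 with only the groups compared, 2549 with array weights, 3559 with the stromal covariate, 2210 without the 4 stroma-highest libraries, 4479 with the block, 803, 759, 781 and 2230 without M1, M10, M11 and M12. The 692 in cKO became 1678 with weights, 2655 with the covariate, 3098 with the block, 1255 with DESeq2 and 362 to 454 without M5, M7, M8, M13, M14 or M15. The 1 gene of genotype under E2/MPA became 597, 363, 185 and 9 with weights, covariate, DESeq2 and without the 4 libraries. Quantile normalization moved the share of control calls that were higher from 60.6% to 48.5%. The cause of these changes was not tested. The 6 members left out by the filter, such as Itga8, were tested only in the limma fit without a filter, where 0 of them passed (lowest adjusted p 0.162) and 3 had an unadjusted p under 0.05 in some comparison.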
